A study of Mus musculus with 32 samples.

Results

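The clustered protocadherins are 57 protein-coding genes in 3 neighbouring clusters on mouse chromosome 18, out of 21887 protein-coding genes that were scored. They were taken by name from the RefSeq annotation of GRCm38, as every protein-coding gene of that chromosome whose symbol starts with Pcdha, Pcdhb or Pcdhg. There are 14 Pcdha genes at chr18:36930285-37188897, 22 Pcdhb genes at chr18:37264998-37521419 and 21 Pcdhg genes at chr18:37661775-37841873. The data are peak lists of 2 histone marks in mouse oocytes from CUT&Tag, where tagged DNA is cut out around the antibody-bound histone mark by a tethered transposase. There are 10 lists of H3K27me3, which is laid down by Polycomb repressive complex 2 (PRC2). There are 6 of H2AK119ub, which comes from Polycomb repressive complex 1 (PRC1).

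Protocadherins are adhesion proteins of the cadherin family that are best known from neurons, where each cell displays its own small combination of clustered isoforms and uses it to tell its own branches from those of other cells. In the Pcdha and Pcdhg clusters each gene contributes a variable exon with its own promoter, which is spliced to constant exons shared by the whole cluster. Pcdhb genes are single variable exons without constant exons. In neurons the promoters are chosen with the help of CTCF, cohesin and DNA methylation. The C-type genes (Pcdhac1, Pcdhac2, Pcdhgc3, Pcdhgc4 and Pcdhgc5) sit last in their clusters and differ in sequence from their neighbours. Pcdhac2, Pcdhb1, Pcdhgc4 and Pcdhgc5 are known to lack a promoter element that most cluster genes share.

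Each group held 2 samples of oocytes from ovaries and had 1 deposited list, so that no difference below has a replicate check and no p-value can be given. PRC1cKO oocytes (H3K27me3 lists at P6 and P7) carry the genotype label Ring1-/-; Ring1F/-; Ddx4-Cre, and PRC1ctrl oocytes at the same stages the label Ring1-/-; Rnf2F/+; Ddx4-Cre. By these labels both lack Ring1, and the label of the PRC1cKO names Ring1 where its control has Rnf2, so the gene deleted in that group is not settled here. PRC2cKO oocytes (EedF/-; Ddx4-Cre) and PRC2ctrl oocytes (EedF/+; Ddx4-Cre) were taken at P6 and have a list of each mark. The wild-type (WT) oocytes were sampled at E18.5, P1, P6 (non-growing) and P7 (growing), with a list of each mark at each stage. Ddx4-Cre is a recombinase active in germ cells, and Eed is a core subunit of PRC2. Peak lists hold no expression, so neither the deletion nor the labelled cell type could be checked against RNA.

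Peaks per list ranged from 49615 to 83994, and the genome length under them from 244.2 to 728.3 Mb. H2AK119ub of WT P7 was the shortest in covered length, and that of WT P6 the longest, which bears on the WT H2AK119ub comparisons below. The spans of Pcdha and Pcdhg genes are nested, since all run to the shared constant exons, so 1 peak near the end of a cluster marks all of its genes by span. The start window was therefore counted too: 1 kb before to 3 kb after the annotated lower end of a gene, 4001 bp around the gene-specific end that overlap no other member's window. Members are similar in sequence, and how the authors treated reads that map to several copies is not given in the sources used here.

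H3K27me3 lay over nearly every clustered protocadherin in every list. By the rule of a peak over at least 1 bp of the span plus 1 kb, all 57 genes were marked in WT oocytes at E18.5, P1 and P6, where 45.8%, 45.5% and 47.5% of all protein-coding genes were. In WT P7, 55 members were marked, beside 49.6% of all genes. PRC1cKO oocytes had 57 marked members at P6 and 56 at P7, with 45.5% and 44.2% of all genes marked. PRC1ctrl oocytes had 57 at P6 and 55 at P7, with 46% and 44.4% of all genes. In PRC2cKO oocytes 56 members were marked and in PRC2ctrl oocytes 57, beside 41.3% and 46.7% of all genes.

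At the start window, where nested spans play no part, the number of members marked by H3K27me3 equalled that by span in each of the 10 lists. Over all genes the start window was marked in 35.1%, 35.8%, 37.8% and 41% for WT at E18.5, P1, P6 and P7. It was marked in 35% and 34.5% for PRC1cKO at P6 and P7, against 36.6% and 35.9% for PRC1ctrl. For PRC2cKO the share was 31.3% and for PRC2ctrl 37.3%. The members that ever lacked the mark were 3 neighbours in the middle of the Pcdhb cluster: Pcdhb8 in WT P7, PRC1cKO P7 and PRC1ctrl P7, Pcdhb10 in WT P7 and PRC1ctrl P7, and Pcdhb9 in PRC2cKO. The other 54 members were marked at the start in all 10 H3K27me3 lists.

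In the lists as deposited, H2AK119ub marked 52 or more members at the start in WT oocytes and fewer in the PRC2 lines. By span, 57, 57, 56 and 53 members were marked in WT at E18.5, P1, P6 and P7, beside 74.3%, 65.9%, 71.5% and 56% of all genes. In PRC2cKO oocytes 44 members were marked by span and in PRC2ctrl oocytes 47, beside 62.7% and 64.5% of all genes. At the start window the WT numbers were 56, 57, 55 and 52, with 63.3%, 52.7%, 56.8% and 41.1% of all genes. There, 33 members were marked in PRC2cKO and 43 in PRC2ctrl, with 46.9% and 48.9% of all genes, so the share of members was above that of all genes in both. Trimmed to the covered length of the shortest list, that of WT P7, the WT E18.5, P1 and P6 lists marked 21, 35 and 21 members by span. At the start they marked 7, 17 and 16, and all of these numbers were below those of WT P7. PRC2cKO and PRC2ctrl, trimmed likewise, marked 19 and 18 at the start. The trimming keeps the peaks of highest total signal. No share of all genes was counted in trimmed lists, so these numbers have no background beside them.

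**Figure D1:**
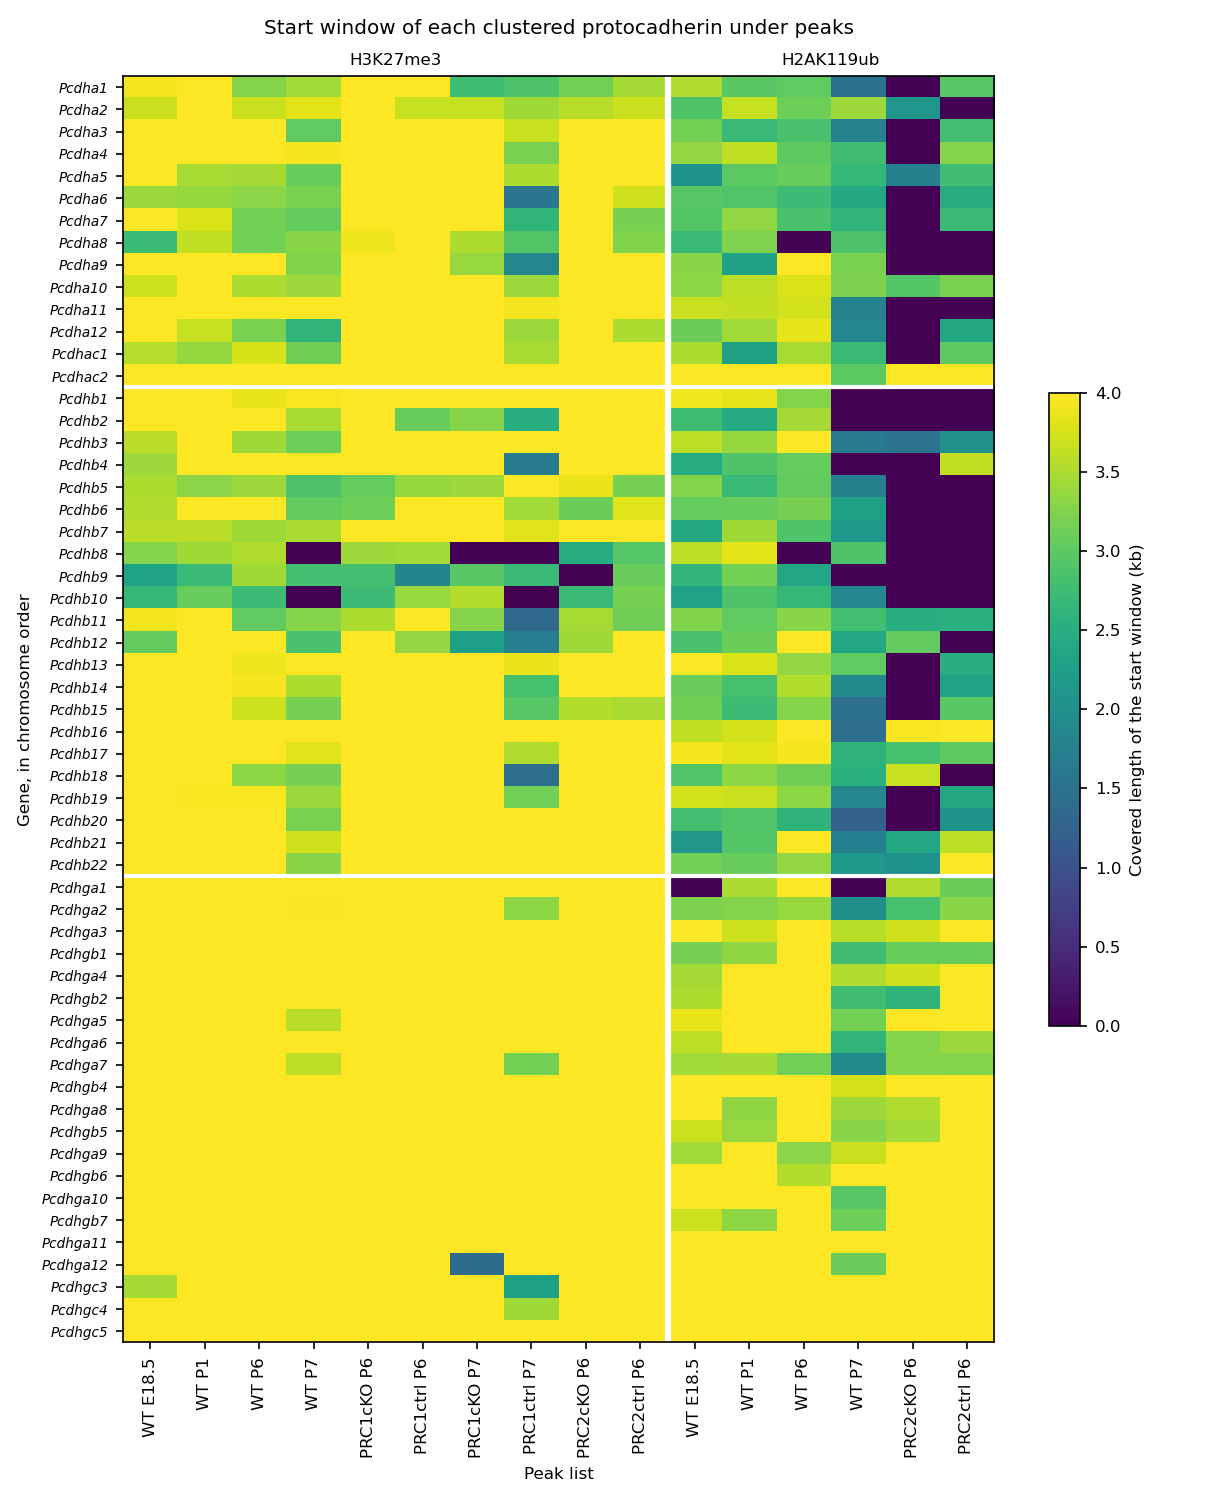
Covered length (kb, colour) of the 4001-bp start window of each of the 57 clustered protocadherins (rows, in chromosome order; white lines part Pcdha, Pcdhb and Pcdhg) in each of the 16 peak lists (columns; the white line parts H3K27me3 from H2AK119ub). H3K27me3 fills most windows in every list, while H2AK119ub is missing (dark) from many Pcdha and Pcdhb windows in PRC2cKO and PRC2ctrl and from none of the Pcdhg windows there.

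The 3 clusters differed in how they were covered. In Pcdha and Pcdhb, where starts lie a median of 7.44 and 7.84 kb apart, H3K27me3 came as several blocks, of which some held 1 start and some several. The longest Pcdha block held 1 start in WT P7 (Pcdhac2) and 5 in WT P1 (Pcdha8 to Pcdha12), and the longest Pcdhb block 2 in WT P7 (Pcdhb15 and Pcdhb16) and 4 in WT P1 (Pcdhb19 to Pcdhb22). In the PRC1 and PRC2 lines at P6 single blocks held 5 to 7 Pcdha starts and 8 Pcdhb starts (Pcdhb15 to Pcdhb22). In WT oocytes the Pcdha start windows were covered by H3K27me3 over 94.6%, 95.1%, 90.1% and 84.4% of their length at E18.5, P1, P6 and P7, but the sequence between them over 25.0%, 24.9%, 20.3% and 11.8%. The Pcdhb windows were covered over 77.4% at P7 and 95.5% at P1, and the sequence between them over 6.49% and 29.7%. In Pcdhg, where starts are a median of 5.37 kb apart, the windows were covered over 99.0% to 100% and the sequence between them over 47.5% to 56.2% in the 4 WT lists.

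Coverage of the Pcdha and Pcdhb genes was highest just downstream of the start, while the cover before the start differed between lists. In WT P6, all 14 Pcdha and all 22 Pcdhb genes carried H3K27me3 at 1 kb and at 2 kb after the start, but 42.9% and 54.5% of them at 1 kb before it. At 3 kb before it, 71.4% and 45.5% did. In PRC1ctrl P6, 92.9% of Pcdha and 77.3% of Pcdhb genes carried H3K27me3 at 1 kb before the start. In WT P7, 21.4% and 27.3% did. H2AK119ub was narrower than H3K27me3 in WT P6. It covered 92.9% of Pcdha and 95.5% of Pcdhb genes at 1 kb after the start in WT P6, and 28.6% and 22.7% at 1 kb before.

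**Figure D2:**
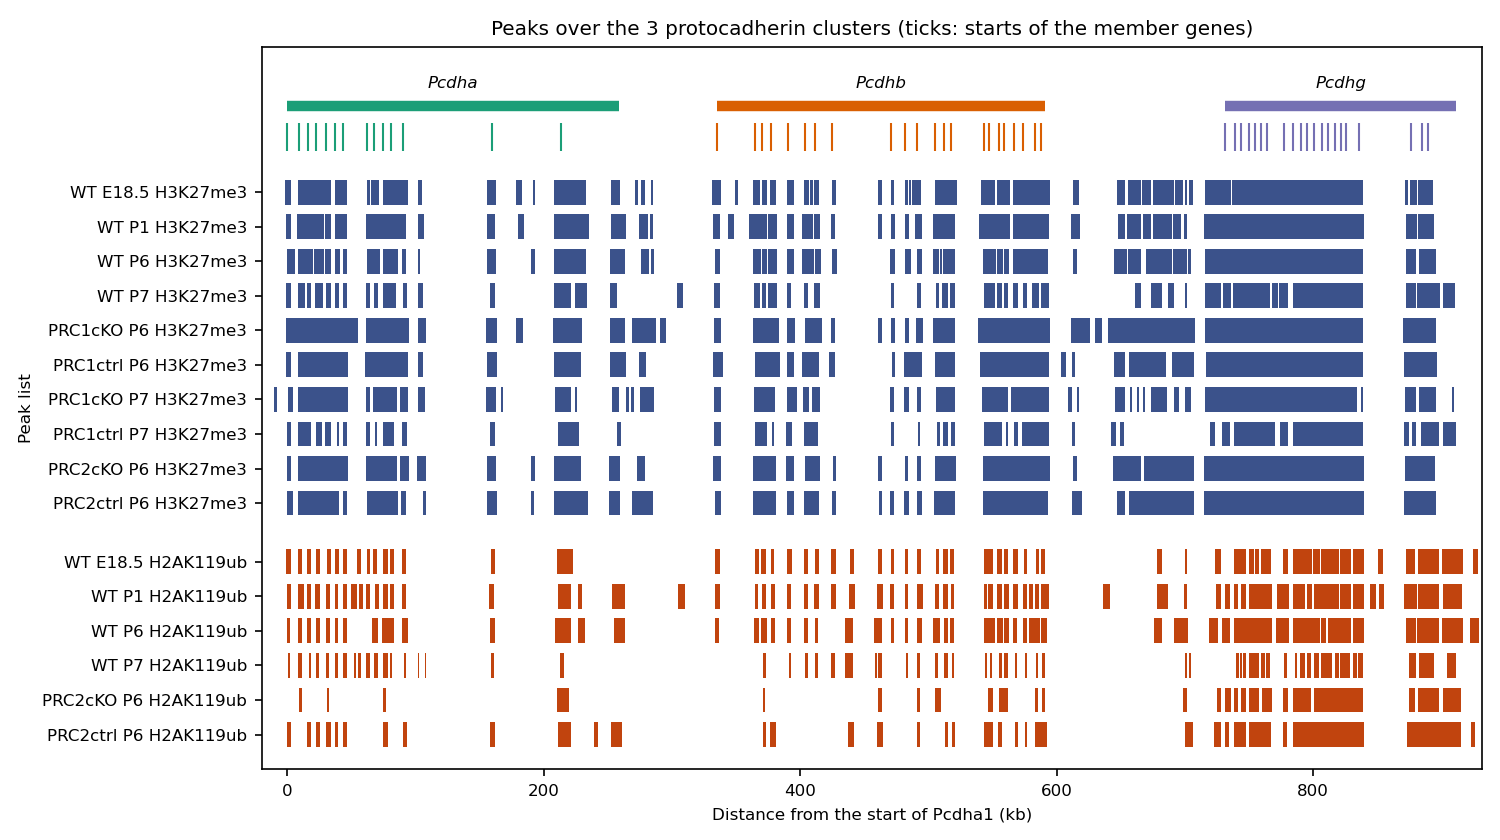
Stretches under peaks (bars) in each of the 16 lists across the 3 clusters, as distance in kb from the start of Pcdha1, with H3K27me3 in blue and H2AK119ub in red; coloured lines on top are the cluster loci and ticks the starts of the 57 members. The Pcdhg starts from Pcdhga1 to Pcdhga12 lie under 1 long H3K27me3 block in most lists, 124.5 kb long in WT P1, which is broken up in WT P7 and PRC1ctrl P7.

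One H3K27me3 peak reached over most of the Pcdhg cluster. It was 102.8 kb long and held 17 member starts (Pcdhga2 to Pcdhga12) in WT E18.5, and it was 124.5 kb in WT P1 and 123.5 kb in WT P6, with 18 starts (Pcdhga1 to Pcdhga12) in both. In WT P7 the longest Pcdhg peak was 55.2 kb and held 10 starts (Pcdhga7 to Pcdhga12). In the 4 lists of the PRC1 and PRC2 lines at P6 the peak was between 123.0 kb and 124.6 kb long, again with 18 starts. The break in WT P7 parted the domain without emptying the windows: 18 of 21 Pcdhg windows were still covered whole, and the other 3 had at least 3.58 kb.

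Each cluster end was described by its outer genes. Pcdha1, the first Pcdha gene, had 3.93, 4.00, 3.26 and 3.45 kb of its start window under H3K27me3 in WT at E18.5, P1, P6 and P7. Under H2AK119ub it had 3.53, 2.98, 3.02 and 1.499 kb. Pcdha1 thus carried H3K27me3 at all WT stages and had its shortest H2AK119ub stretch at P7. Pcdhb1, which stands alone at the front of its cluster, had 4.00, 4.00, 3.87 and 3.96 kb under H3K27me3 and 3.92, 3.86, 3.26 and 0 kb under H2AK119ub. Pcdhb22, the last Pcdhb gene, had 4.00, 4.00, 4.00 and 3.29 kb under H3K27me3 and 3.14, 3.07, 3.35 and 2.13 kb under H2AK119ub. Pcdhga1, the first Pcdhg gene, was covered whole by H3K27me3 in all 10 lists, while its H2AK119ub was 0 kb in WT E18.5, 3.49 kb in P1, 4.00 kb in P6 and 0 kb in P7.

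Of the C-type genes, 4 of 5 were covered whole or nearly so in most lists. Pcdhgc5 was covered over its whole start window in all 16 lists. Pcdhgc3 and Pcdhgc4 were whole under H2AK119ub in all 6 lists and under H3K27me3 in all but a few, the exceptions being 3.47 kb for Pcdhgc3 in WT E18.5, and 2.28 kb for Pcdhgc3 and 3.43 kb for Pcdhgc4 in PRC1ctrl P7. Pcdhac2 was whole under H3K27me3 in all 10 lists and under H2AK119ub in 5 of 6, with 2.99 kb in WT P7. Pcdhac1 was covered less completely, with 3.56, 3.37, 3.76 and 3.14 kb under H3K27me3 and 3.50, 2.28, 3.48 and 2.70 kb under H2AK119ub in WT at E18.5, P1, P6 and P7. Across the cluster genes, 17 had whole windows under H3K27me3 throughout the 10 lists, and 4 under H2AK119ub throughout the 6. Those 4 were Pcdhgc3, Pcdhgc4, Pcdhgc5 and Pcdhga11, which is not a C-type gene and was whole in all 16 lists.

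**Figure D3:**
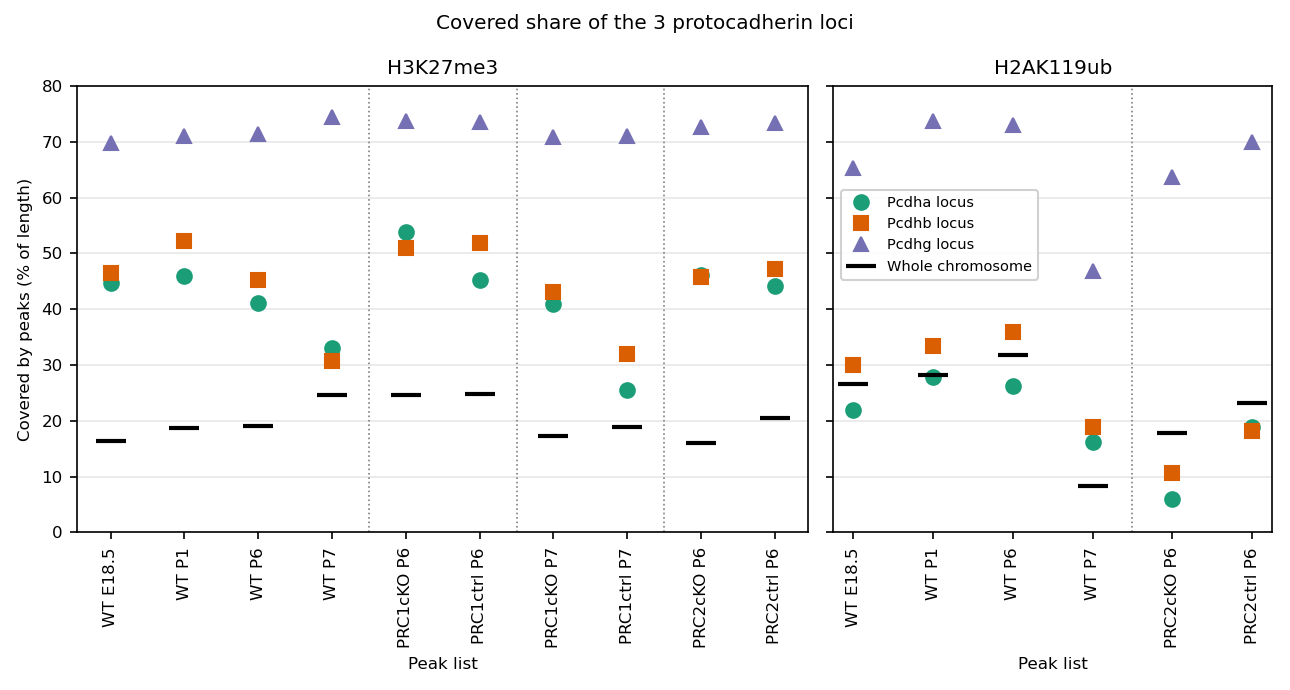
Share of each cluster locus (first start to last end plus 1 kb, % of length) under peaks in each list, with the same share of the whole chromosome (black bar). H3K27me3 covered Pcdhg over 69.9% to 74.4% of its length in all 10 lists, and Pcdha and Pcdhb over less in WT P7 and PRC1ctrl P7 (25.6% to 33.0%) than in the other 8 (40.9% to 53.9%).

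Strength within a list was read from the authors' signal columns, as percentiles among all peaks of the same list. The median Pcdha peak of H3K27me3 stood at the 98.9th percentile by maximum signal in WT E18.5, the 97.9th in P1, the 96.8th in P6 and the 84.0th in P7. For Pcdhb the percentiles were 95.8, 95.3, 94.2 and 86.4, and for Pcdhg 96.2, 94.0, 98.2 and 94.98. By total signal, which grows with the length of a peak, the Pcdha medians were lower, at 91.7, 91.5, 87.4 and 49.9, and the Pcdhb medians at 86.4, 84.6, 81.6 and 53.2. For H2AK119ub the medians by maximum signal were 92.5, 76.9, 80.9 and 64.7 for Pcdha. They were 83.1, 88.8, 85.9 and 74.1 for Pcdhb, and 95.01, 92.5, 96.2 and 86.9 for Pcdhg. By total signal the H2AK119ub medians were 67.2, 54.0, 44.8 and 66.9 for Pcdha and 52.9, 56.1, 40.8 and 60.5 for Pcdhb. For Pcdhg they were 86.8, 88.6, 87.2 and 84.8. In Pcdha and Pcdhb the P7 value was thus above that of P6 by total signal and below it by maximum signal.

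Between WT P6 and WT P7, as oocytes pass to growth, the share under H3K27me3 was lower at P7 over Pcdha and Pcdhb, while it was higher over the whole chromosome. The Pcdha locus was covered over 33.0% in WT P7 and 41.2% in WT P6, and the Pcdhb locus over 30.7% and 45.2%. Chromosome 18 as a whole was covered over 24.7% in P7 and 19.2% in P6, the opposite direction, and Pcdhg over 74.4% and 71.5%. Within Pcdhg, the sequence after the last start window was covered over 75.8% in P7 and 18.3% in P6. The sequence between its start windows was covered over 47.5% and 54.5%. Of 57 start windows 28 had less cover in P7, 7 had more and 22 were equal. With both lists trimmed to the same covered length the differences were -11.7 and -18.1 percentage points for Pcdha and Pcdhb, against -8.20 and -14.5 without trimming.

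The largest single differences were in the Pcdhb cluster. Pcdhb8 had 0 kb in WT P7 and 3.52 kb in WT P6, and Pcdhb10 had 0 kb and 2.74 kb. These were the 2 members that lost H3K27me3, by span as by start window, where 5.85% (span) and 5.26% (start) of all genes lost it. Of genes marked by span in P6, 3.51% of members and 12.3% of all genes lost it. By span 4 members lost it with both lists trimmed to the same covered length, and 10 with peaks at or above the median total signal only. No share of all genes was counted under those settings. Shortened but still marked were Pcdhb12 with 2.85 kb in P7 and 4.00 kb in P6, Pcdha3 with 3.02 and 4.00 kb, and Pcdhb6 with 3.03 and 4.00 kb. Among the few windows with more cover, Pcdhb11 led with 3.28 kb in P7 and 3.03 kb in P6, followed by Pcdha1, Pcdha2, Pcdha8 and Pcdhb13. No member gained or lost H3K27me3 between E18.5 and P1 or between P1 and P6, where the largest differences were 0.970 kb or less in size.

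PRC1ctrl oocytes had the same order between stages. The Pcdha locus was covered over 25.6% in PRC1ctrl P7 and 45.3% in PRC1ctrl P6, and the Pcdhb locus over 32.0% and 51.9%. Chromosome 18 was covered over 18.9% in PRC1ctrl P7 and 24.8% in PRC1ctrl P6, which is the same direction. The sequence after the last Pcdhg start window was covered over 80.4% in PRC1ctrl P7 and 20.4% in PRC1ctrl P6. The 2 members that lost the mark were again Pcdhb8 and Pcdhb10 (all genes: 7.6% lost by span, 7.17% by start). Start windows were shorter in P7 for 31 members and longer for 2. Pcdhb11 had 1.37 kb in PRC1ctrl P7 and 4.00 kb in PRC1ctrl P6, Pcdhb18 1.45 and 4.00 kb, and Pcdha6 1.57 and 4.00 kb.

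In PRC1cKO oocytes fewer start windows differed between stages. There 9 windows were shorter in P7 than in P6 and 4 longer. Pcdhb8 was the 1 member that lost the mark, with 0 kb in PRC1cKO P7 and 3.42 kb in PRC1cKO P6 (all genes: 6.41% lost by span, 5.93% by start). Pcdhga12 had 1.41 kb in P7 and 4.00 kb in P6, and Pcdhb12 2.26 and 4.00 kb. The Pcdha locus was covered over 40.9% in PRC1cKO P7 and 53.9% in PRC1cKO P6, and chromosome 18 over 17.2% and 24.7%. Whether the stage differences of the lines differ beyond the error between samples could not be tested with 1 list per group.

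Set against PRC1ctrl directly, PRC1cKO had nearly the same start windows at P6 and longer ones at P7. Sequence outside the windows was more covered at both stages in places and less covered in others. At P6 the 57 start windows held 222.6 kb of H3K27me3 in PRC1cKO and 222.2 kb in PRC1ctrl, 47 windows were equal, and no member was gained or lost. The largest differences at P6 were Pcdhb9, with 2.83 kb in PRC1cKO and 1.82 kb in PRC1ctrl, and Pcdhb2, with 4.00 and 3.08 kb. The Pcdha locus was covered over 53.9% in PRC1cKO P6 and 45.3% in PRC1ctrl P6, and its sequence between start windows over 39.0% and 25.6%. The Pcdhb locus stood at 50.9% in PRC1cKO P6 and 51.9% in PRC1ctrl P6, and the chromosome at 24.7% and 24.8%. At P7 the windows held 213.5 kb in PRC1cKO and 187.1 kb in PRC1ctrl, longer in 30 members and shorter in 3. The locus was covered over 40.9% in PRC1cKO P7 and 25.6% in PRC1ctrl P7 for Pcdha, and over 43.1% and 32.0% for Pcdhb. Pcdhg stood at 70.9% and 71.0%, but its parts differed. Its sequence between start windows was covered over 54.7% in PRC1cKO P7 and 42.1% in PRC1ctrl P7. Its sequence after the last start window was covered over 25.4% and 80.4%. Chromosome 18 had the opposite order to Pcdha and Pcdhb, with 17.2% in PRC1cKO and 18.9% in PRC1ctrl.

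The median PRC1cKO minus PRC1ctrl difference at P7 was 0.114 kb over the 57 start windows, of which 24 were equal. The members named next differed most. Pcdhb10 had 3.53 kb in PRC1cKO P7 and 0 kb in PRC1ctrl P7, the 1 member to gain the mark, beside 6.5% (span) and 5.83% (start) of all genes. Pcdhb18 had 4.00 kb in PRC1cKO and 1.45 kb in PRC1ctrl, Pcdha6 4.00 and 1.57 kb, Pcdhb4 4.00 and 1.67 kb, and Pcdhb11 3.27 and 1.37 kb. The 3 shorter windows were Pcdhga12 with 1.41 kb in PRC1cKO and 4.00 kb in PRC1ctrl, Pcdhb5 with 3.42 and 4.00 kb, and Pcdha1 with 2.76 and 2.89 kb. The longest Pcdhg peak was 118.8 kb over 17 starts in PRC1cKO P7, and 54.1 kb over 10 starts in PRC1ctrl P7. WT P7 had 33.0% of Pcdha and 30.7% of Pcdhb under H3K27me3 and a longest Pcdhg peak of 55.2 kb.

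H3K27me3 over the members covered similar lengths in PRC2cKO and PRC2ctrl oocytes at P6, although the PRC2cKO list was shorter genome-wide (428.6 Mb against 558.4 Mb). The start windows held 217.4 kb in PRC2cKO and 219.6 kb in PRC2ctrl, and 42 of 57 were equal. The loci were covered over 46.1% in PRC2cKO and 44.2% in PRC2ctrl for Pcdha, 45.7% and 47.2% for Pcdhb, and 72.7% and 73.3% for Pcdhg, while chromosome 18 had 16.1% and 20.5%. Pcdhb9 was the 1 member lost, with 0 kb in PRC2cKO and 3.09 kb in PRC2ctrl. Over all genes 7.25% lost the mark by span and 7.33% by start. Pcdha7 had 4.00 kb in PRC2cKO and 3.18 kb in PRC2ctrl, and Pcdha8 4.00 and 3.25 kb. The lists give where a peak was called and, through a scaling that is not known, how much signal it had, so the amount of H3K27me3 at these genes cannot be compared between the 2 lists.

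H2AK119ub covered less of Pcdha and Pcdhb in PRC2cKO than in PRC2ctrl oocytes as deposited, with a smaller gap over Pcdhg. The Pcdha start windows held 10.8 kb in PRC2cKO and 29.6 kb in PRC2ctrl, the Pcdhb windows 22.0 and 35.1 kb, and the Pcdhg windows 77.0 and 80.1 kb. Of the locus, 6.08% in PRC2cKO and 18.9% in PRC2ctrl was covered for Pcdha, 10.6% and 18.1% for Pcdhb, and 63.7% and 70.0% for Pcdhg. The chromosome had 17.8% in PRC2cKO and 23.3% in PRC2ctrl. At the start window 13 members lost H2AK119ub (7 Pcdha and 6 Pcdhb), beside 7.28% of all genes, and 3 gained it, beside 5.24%. By span 5 were lost and 2 gained, beside 6.48% and 4.64% of all genes. Of genes marked in PRC2ctrl, 30.2% of members and 14.9% of all genes lost it by start, and 10.6% and 10% by span.

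Of the 57 start windows 28 were shorter in PRC2cKO than in PRC2ctrl, 5 longer and 24 equal, some of these unmarked in both. The median PRC2cKO minus PRC2ctrl difference was -1.735 kb for Pcdha, -0.032 kb for Pcdhb and 0 kb for Pcdhg. The members named first differed most. Pcdha1 had 0 kb of H2AK119ub in PRC2cKO and 2.97 kb in PRC2ctrl, Pcdha4 0 and 3.28 kb, and the C-type gene Pcdhac1 0 and 3.00 kb. In the Pcdhb cluster, Pcdhb4 had 0 kb in PRC2cKO and 3.64 kb in PRC2ctrl, and Pcdhb15 0 and 2.98 kb. Higher in PRC2cKO were Pcdhb18 with 3.67 kb in PRC2cKO and 0 kb in PRC2ctrl, Pcdhb12 with 3.04 and 0 kb, and Pcdha2 with 2.08 and 0 kb. Pcdhac2, at the end of the Pcdha cluster, had 4.00 kb in both lists, and so had Pcdhgc3, Pcdhgc4 and Pcdhgc5. All 21 Pcdhg windows were marked in both, with Pcdhga1 at 3.52 kb in PRC2cKO and 3.10 kb in PRC2ctrl.

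The H2AK119ub difference varied with the way the lists were trimmed. When both were trimmed to the same covered length by dropping peaks of low total signal, the Pcdha locus was covered over 6.08% in PRC2cKO and 6.69% in PRC2ctrl, and the Pcdhb locus over 10.6% and 8.07%. With equal numbers of peaks, Pcdha had 5.42% in PRC2cKO and 18.9% in PRC2ctrl. The control lists also differed among themselves: at the start window 12 members (3 Pcdha and 9 Pcdhb) were unmarked in PRC2ctrl P6 and marked in WT P6, where 10.7% of all genes were lost. By span 9 members were lost in that pair, beside 9.42% of all genes. Of genes marked in WT P6, 21.8% of members and 18.8% of all genes lost it by start, and 16.1% and 13.2% by span. Pcdha9 had 0 kb in PRC2ctrl and 4.00 kb in WT P6, and Pcdhb12 likewise.

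**Figure D4:**
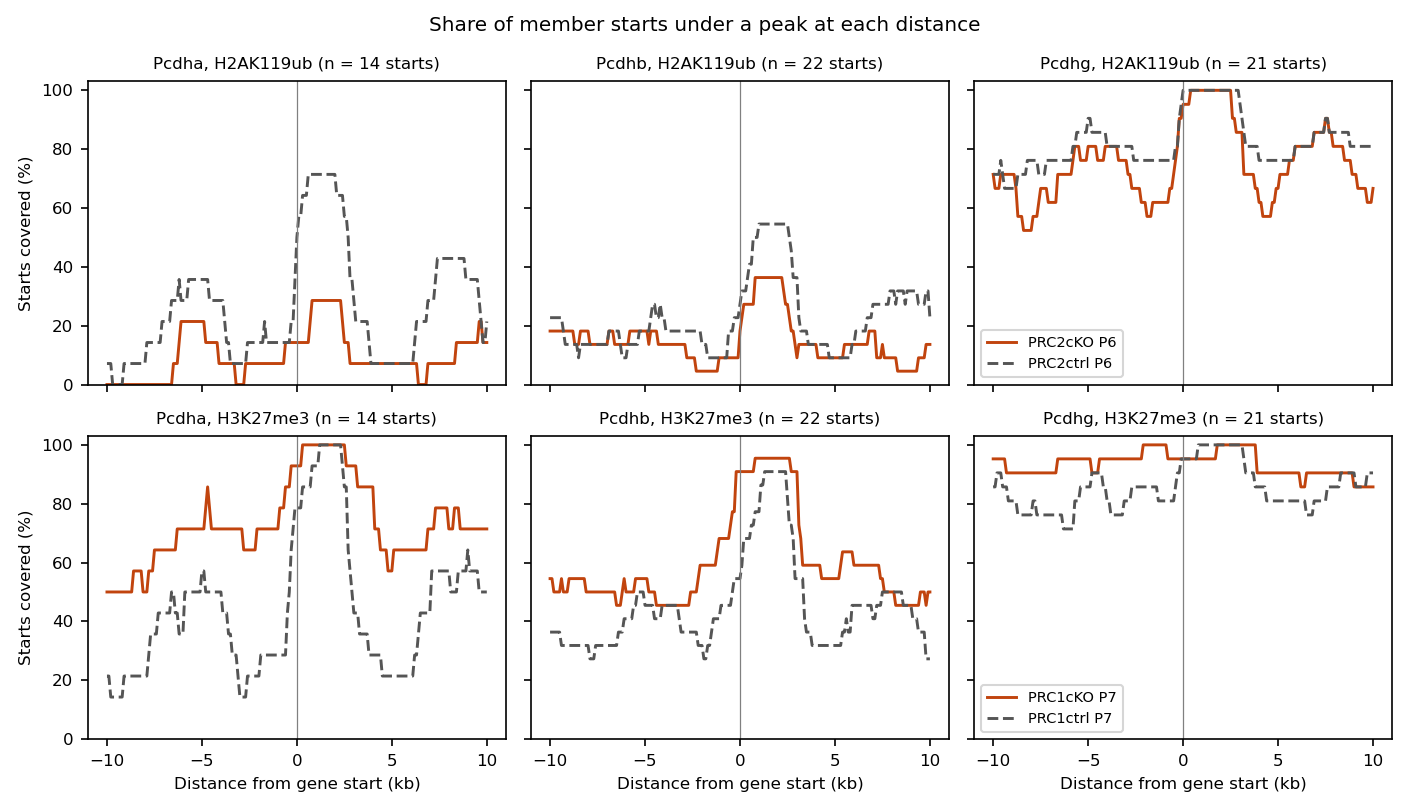
Share of member starts (%) that lie under a peak at each distance (kb) from 10 kb before to 10 kb after the start, in knockout (solid) and control (dashed) oocytes, by cluster: H2AK119ub in PRC2cKO and PRC2ctrl at P6 (top), H3K27me3 in PRC1cKO and PRC1ctrl at P7 (bottom). At 1 kb after the start, 28.6% of Pcdha genes were under H2AK119ub in PRC2cKO and 71.4% in PRC2ctrl, while all Pcdhg genes were in both. At 3 kb after the start, 92.9% of Pcdha genes were under H3K27me3 in PRC1cKO P7 and 42.9% in PRC1ctrl P7.

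In the WT lists as deposited, H2AK119ub covered similar lengths of the start windows from E18.5 to P6 and less at P7. The start windows held 188.2, 194.7, 194.6 and 139.1 kb at E18.5, P1, P6 and P7. Of the clusters, Pcdhb had the largest difference at the last step, with 37.7 kb in WT P7 and 69.8 kb in WT P6, and 21 of its 22 windows were shorter. Pcdhga1 gained the mark in P1 with 3.49 kb, against 0 kb in E18.5, beside 2.73% of all genes by start window. Pcdha8 and Pcdhb8 had 0 kb in WT P6, and 3.22 and 3.84 kb in WT P1. These were 2 losses by start window (4.59% of all genes) and 1 by span (3.58%). With the P6 and P1 lists trimmed to the same covered length, 11 members lost the mark by span in P6. The share under it then differed by -10.8 percentage points for Pcdha and -12.0 for Pcdhb. No share of all genes was counted in the trimmed lists.

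At P7, H2AK119ub was absent from Pcdhb1, Pcdhb2, Pcdhb4 and Pcdhb9 by either rule and from Pcdhga1 by start window. These were 4 losses by span and 5 by start, beside 18.1% and 18.6% of all genes. Of genes marked in P6, 7.14% of members and 25.4% of all genes lost it by span, and 9.09% and 32.7% by start. Pcdhga1 had 0 kb in WT P7 and 4.00 kb in WT P6, Pcdhb2 0 and 3.46 kb, Pcdhb1 0 and 3.26 kb, and Pcdhb4 0 and 3.06 kb. Pcdhb8 had 2.90 kb in P7 and 0 kb in P6 and Pcdha8 2.89 and 0 kb, which makes 1 gain by span and 2 by start, beside 2.62% and 2.93% of all genes. The WT P7 list covered 244.2 Mb and the WT P6 list 728.3 Mb, and chromosome 18 was covered over 8.37% in P7 and 31.8% in P6. When the WT P6 list was trimmed to the length of the WT P7 list, no Pcdha or Pcdhb sequence was left under its peaks, and the direction turned there: Pcdha was covered over 16.2% in P7 and 0% in P6, and Pcdhb over 18.9% and 0%. Pcdhg kept its direction at 46.9% in P7 and 47.2% in P6. The trim keeps the peaks of highest total signal, by which Pcdha and Pcdhb peaks of WT P6 reached at most percentile 88.8 and 72.8. Their removal thus came with the ranking, and the trimmed values cannot decide the direction between stages.

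In the lists as deposited, H2AK119ub over the clusters lay mostly inside H3K27me3: of the Pcdha sequence under H2AK119ub, 94.0%, 88.3%, 96.6% and 87.8% was also under H3K27me3 in WT at E18.5, P1, P6 and P7. Over all clusters and groups with both marks, the lowest such share was 66.9%, for Pcdhb in WT P7. With peaks at or above the median total signal of each list only, both marks together covered 15.2% of the Pcdha locus in WT P6, against 25.4% with all peaks, and 12.7% of the Pcdhb locus, against 30.3%. With all peaks, H2AK119ub covered 46.2%, 53.6%, 61.7% and 43.2% of the Pcdha sequence under H3K27me3. Pcdhg was the most fully shared, with 89.3% of its H3K27me3 sequence under H2AK119ub in WT P6. In PRC2cKO all of the Pcdha sequence under H2AK119ub was under H3K27me3, and it made up 13.2% of the H3K27me3 sequence. In PRC2ctrl 91.7% was, and it made up 39.1%. Start windows with H3K27me3 and no H2AK119ub numbered 10 of 14 Pcdha genes in PRC2cKO and 4 in PRC2ctrl, and 13 of 22 Pcdhb genes in PRC2cKO and 10 in PRC2ctrl. Over all genes with H3K27me3 at the start, 79.7% carried both marks in PRC2cKO and 82.5% in PRC2ctrl.

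Members with H3K27me3 and no H2AK119ub at the start numbered 1 in WT E18.5 (Pcdhga1), 0 in P1, 2 in P6 (Pcdha8 and Pcdhb8) and 5 in P7. Over all genes with H3K27me3 at the start, 84.9%, 84.0%, 88.7% and 77.4% carried both marks at E18.5, P1, P6 and P7. Over the 4 WT stages, 2 windows had H2AK119ub alone, Pcdhb8 and Pcdhb10, both in P7. They had 2.90 and 1.86 kb of H2AK119ub there.

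H3K27me3 also lay outside the clusters. The 138.4 kb between Pcdhb and Pcdhg, which hold Taf7 (a subunit of the general transcription factor TFIID) and Slc25a2 (a mitochondrial carrier), were covered over 52.1%, 50.6%, 52.4% and 25.5% in WT at E18.5, P1, P6 and P7. That gap was covered over 76.7% in PRC1cKO P6 and 56.6% in PRC1ctrl P6, and over 38.3% in PRC1cKO P7 and 12.2% in PRC1ctrl P7. Taf7 itself stayed almost free, with at most 0.121 kb of its span under H3K27me3 in any list and none under H2AK119ub. The 74.1 kb between Pcdha and Pcdhb were covered over 2.22% to 38.3% by H3K27me3, with 38.3% in PRC1cKO P6 and 16.3% in PRC1ctrl P6, and 20.8% in PRC1cKO P7 and 2.22% in PRC1ctrl P7. The 500 kb before Pcdha had 4.75% to 17.8%, and the 500 kb after Pcdhg 25.0% to 59.1%.

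Other genes of the family were counted from lists chosen with earlier results known. All 12 non-clustered protocadherins were marked by H3K27me3 at the start in 8 of 10 lists. Of these genes, Pcdh1 and Pcdh12 lie beside the clusters on chromosome 18. In WT P7 and PRC1ctrl P7 10 were marked, and Pcdh9 and Pcdh15 were not. Of 23 other cadherins, 13 to 17 (56.5% to 73.9%) were marked by H3K27me3 at the start. The lowest number was in the same WT P7 and PRC1ctrl P7 lists. Over all genes, 31.3% to 41% were marked at the start in the 10 lists. Of 18 genes for factors known to act on the clusters, such as Ctcf and the cohesin subunits, 1 to 4 were marked by H3K27me3 at the start. That is 5.56% to 22.2%, below the share of all genes. The marked ones included Dnmt3b, a DNA methyltransferase, in 7 of 10 lists, and Ctcf in none of the 10.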

How the data were processed

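CUT&Tag of H3K27me3 and H2AK119ub was done on oocytes with Drosophila S2 cells added at a fixed ratio (for example 2000 to 1000 oocytes) and reads of 150 bp, per the labels' protocols. Picard 3.0.0, Bowtie2, SAMtools, Trim Galore 0.6.10 and deepTools appear without roles in the submitters' processing notes, as do GRCm38, mm10 and dm6. For the peak caller, its threshold, the scaling and the way 2 samples became 1 list, the entry is "not given in the sources used here". Each peak has a deposited total signal and, as a second deposited score, a maximum signal. They were read as such because total over width never passed the maximum, and were used only to rank or trim peaks within a list. Read depth is unknown from these files.

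Peaks were set against RefSeq GRCm38 genes in Python 3.11.15 with pandas 2.3.3 and numpy 2.4.6, and the overlap code was tested on simulated data. A gene counted as marked with 1 bp or more of its window under a peak. It was lost when marked in the second-named list only, and gained when marked in the first-named list only. No strand is given here for genes of chromosome 18, so the lower coordinate was taken as the start, which for Pcdha and Pcdhg genes is the end that is not shared. Of all 21887 genes, 17492 have a strand and were counted from their own start. Pcdhgb8, annotated as a transcribed pseudogene, and 3 read-through genes (Gm37013, Gm38666 and Gm38667) are not members. Named genes are the first and last gene of each cluster, the C-type genes, Pcdhb1, up to 5 members per direction with the largest difference in covered start window for each comparison, and unmarked members. The members, lists and rules were chosen with earlier results of these data known. No sequence is printed.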

Additional observations from a re-analysis of the deposited data

How the results depend on the processing

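No paired analysis was possible because each group has 1 deposited list, and for the same reason no replicate could be left out. Counts of marked members were within 1.5 times of those given in 93 of 96 comparisons with other settings by span and in 56 of 64 by start window. The exceptions came from keeping peaks at or above the median total signal, or from trimming to equal covered length (for a single list, the shortest list of its mark; for a comparison, the shorter of the pair). Trimmed in length, members marked by H2AK119ub numbered 21, 35 and 21 by span in WT E18.5, P1 and P6, and 7, 17 and 16 at the start. The start windows gave 19 in PRC2cKO and 18 in PRC2ctrl for H2AK119ub, and 27 in WT P7 for H3K27me3. With peaks at or above the median, the H2AK119ub starts were 25 in PRC2ctrl and 33 in WT P6. No share of all genes was counted in trimmed or median-filtered lists, so these counts have no background.

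Losses and gains, being small numbers, varied more. Those at equal length, with equal numbers of peaks or above the median also have no share of all genes beside them. For H3K27me3, WT P7 lost 4 members against WT P6 at equal covered length and 10 above the median. Above the median, 1 was lost in P1 against E18.5 and 1 gained in P6 against P1, 5 were lost in PRC1ctrl P7 against P6, 0 were lost and 2 gained in PRC1cKO P7 against P6, 1 was lost in PRC1cKO P6 against PRC1ctrl P6, and 6 were gained in PRC1cKO P7 against PRC1ctrl P7. At equal length that last count was 2, PRC1cKO P7 lost 0 against P6, and PRC2cKO lost 0 and gained 1 against PRC2ctrl, with 0 lost above the median. For H2AK119ub, PRC2cKO lost 13 against PRC2ctrl by start window, 0 at equal length (5 gained) and 3 above the median. WT P7 against P6 lost 0 and gained 32 at equal length, lost 7 with equal numbers of peaks, gained 2 by start window and gained 7 above the median. WT P6 against P1 lost 2 by start window, 11 at equal length and 9 above the median, where 1 was gained. WT P1 against E18.5 gained 1 by start window, 2 at equal length and 3 above the median, where 2 were lost.

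Differences in covered share, in percentage points, that moved past a working bound are given next. The bound takes 1-kb bins as independent, which bins under 1 peak are not, so it sorts the values and measures no error. Above the median, H3K27me3 in WT P7 against P6 gave -17.1 for Pcdha and -25.1 for Pcdhb. H2AK119ub there gave -2.37 and -1.08, and at equal length it reversed to 16.2 and 18.9, with -0.252 for Pcdhg. PRC2cKO against PRC2ctrl H2AK119ub gave -0.604 for Pcdha and 2.50 for Pcdhb at equal length, and -3.19 for both above the median. WT P6 against P1 H2AK119ub gave -10.8 for Pcdha and -12.0 for Pcdhb at equal length, and WT P1 against E18.5 gave -2.96 for Pcdha above the median. PRC2ctrl against WT P6 H2AK119ub reversed to 14.6 for Pcdhb at equal length. For the trimmed lists, the shorter covered length and the dropping of peaks of low total signal are part of the setting's construction. Otherwise the cause was not tested. With peaks above the median, the share of a cluster under both marks moved past that bound in 10 of 18 cases. The median percentile of cluster peaks differed from that by total signal by over 10 points in 25 of 48 cases by maximum signal and in 30 of 48 by mean signal per bp. The PRC1cKO against PRC1ctrl difference at P7 was 15.3 to 19.5 points for Pcdha and 11.1 to 14.8 for Pcdhb under every setting tried. Depth is unknown and limits all counts.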
